A study of Mus musculus with 4 samples.

Results

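The Rab small GTPases were described in mouse 2-cell embryos cultured with or without a degrader of Nelfb. All genes of the deposited expression table whose symbol consists of Rab, a number and at most 1 letter with 1 further digit were taken as members, which gave 54 of the 18714 genes. No symbol occurred in more than 1 row, and the rule uses symbols only, although the family was picked with earlier results of these data known. Each member was matched by its Ensembl identifier to a protein-coding gene in GENCODE M21 (GRCm38, the assembly also called mm10).

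Zygotes came from natural matings of homozygous Nelfb dTAG/dTAG females with homozygous males of the outbred ICR strain and were cultured for 30 hours in KSOM, a medium for preimplantation embryos. The treated group received 500 nM dTAG-13, a small molecule that links a tagged protein to a ubiquitin ligase so that the protein is degraded, and the Vehicle group received 0.01% DMSO. The labels give no DMSO content for the dTAG-13 medium. Both groups carried the degron tag on both copies of Nelfb, and embryos without the tag were not analysed here. The Nelfb protein is part of negative elongation factor, which holds RNA polymerase II in a pause soon after initiation. Each library was made from polyadenylated RNA of a pool of 3 embryos, with 2 libraries per group, and libraries contained 16522506 to 38112685 reads in genes. The dTAG-13 libraries were the deeper ones, where 1 read equals 0.622 and 0.697 scaled reads, beside 1.20 and 1.62 in the Vehicle libraries. The tag acts on protein, so the mRNA level of Nelfb does not check the treatment labels. Nothing in the labels ties the pools of a group to separate matings or culture days, and the p-values thus cover the variation among these pools alone, which may be technical. All 8 listed genes of the 2-cell stage, among them Zscan4d and Zfp352, were measured, and together they took 0.444% and 0.462% of scaled reads under dTAG-13 and 0.709% and 0.550% with Vehicle. A list of 50 oocyte transcripts took 1.12% and 1.15% of scaled reads under dTAG-13 against 5.77% and 7.44% with Vehicle. Listed cumulus and granulosa genes took at most 0.00984% of scaled reads in any library, and 6 of the 10, among them Fshr, Amh and Foxl2, had no entry in the table. Sperm genes took at most 0.000703%, oviduct genes at most 0.0349% with no entry for Foxj1 and Pax8, and blood genes at most 0.0051%. The sums for cumulus and oviduct genes were higher and those for sperm and blood genes lower in both dTAG-13 libraries than in both Vehicle libraries, and the part of these lists and of the oocyte transcripts in the results on Rab genes was not tested.

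Rab proteins are small GTPases that mark membranes. In the GTP-bound form each recruits effectors to a particular organelle, where these bud, move, tether or fuse vesicles, and exchange factors, GTPase-activating proteins and a lipid anchor added to the C terminus control where and when it is active. In mouse oocytes, vesicles that carry Rab11a move with actin to the cell surface and take part in positioning the spindle, and after fertilisation endosomes and lysosomes clear maternal proteins.

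The part of all scaled reads taken by Rab members was close between the groups. Their make-up was not, and their summed reads per kilobase of exon differed through Rab20. Of all scaled reads, the 54 members took 0.377% and 0.339% with dTAG-13 and 0.332% and 0.329% with Vehicle. Within that, 7 members rose and 11 fell with dTAG-13 under the scaling as deposited, and 6 of the 11 had positive fold changes when libraries were scaled to equal oocyte transcripts. By gene number, the 7 that rose were Rab1a, Rab2b, Rab5a, Rab20, Rab26, Rab29 and Rab39. The 11 that fell were Rab2a, Rab4a, Rab7, Rab8b, Rab11a, Rab12, Rab14, Rab18, Rab21, Rab22a and Rab32. Of the 54 members, 50 reached a mean of 10 scaled reads over the 4 libraries and were tested. A gene with reads in 1 group alone could reach that mean through this group, as Rab32 and Rab3c did. Rab26 had reads in both groups but reached it through the dTAG-13 libraries. Rab26 and Rab32 are still counted among the members called. Of the 50, 32 did not pass the threshold of a Benjamini-Hochberg adjusted p under 0.05 over all 15978 genes (limma on log2(scaled reads + 1)). The 18 members called are 36.0% of those tested, beside 18.7% of all genes, with 8.94% of all genes higher and 9.79% lower. With a minimum mean of 50 scaled reads this gap was narrower. Limma then called 8 members higher and 12 lower of 45, beside 1938 and 1891 of 11246 genes. Both dTAG-13 libraries lay above both Vehicle libraries for 15 tested members and below them for 22, beside 32.2% and 34.5% of all genes. On the log2 scale the median change was -0.38 over tested members and -0.10 over all genes tested.

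These calls needed all 4 libraries. Without Vehicle replicate 1, a fit in which a group has a single pool and is assumed to vary like the other group called Rab20 higher and Rab32 and Rab3c lower. Without Vehicle replicate 2 it called Rab32 and Rab3c lower, and without either dTAG-13 library limma called 0 members, while unadjusted p-values under 0.05 were found for 5 higher and 14 lower members without replicate 1 and for 7 and 15 without replicate 2. All 18 members kept the sign of their fold change in each of these 4 fits. The authors' deposited table lists 51 members and gives 6 as higher and 9 as lower by its adjusted p at the same threshold, all of them among the 18 called here, beside 7.56% and 8.47% of all genes listed there.

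**Figure D1:**
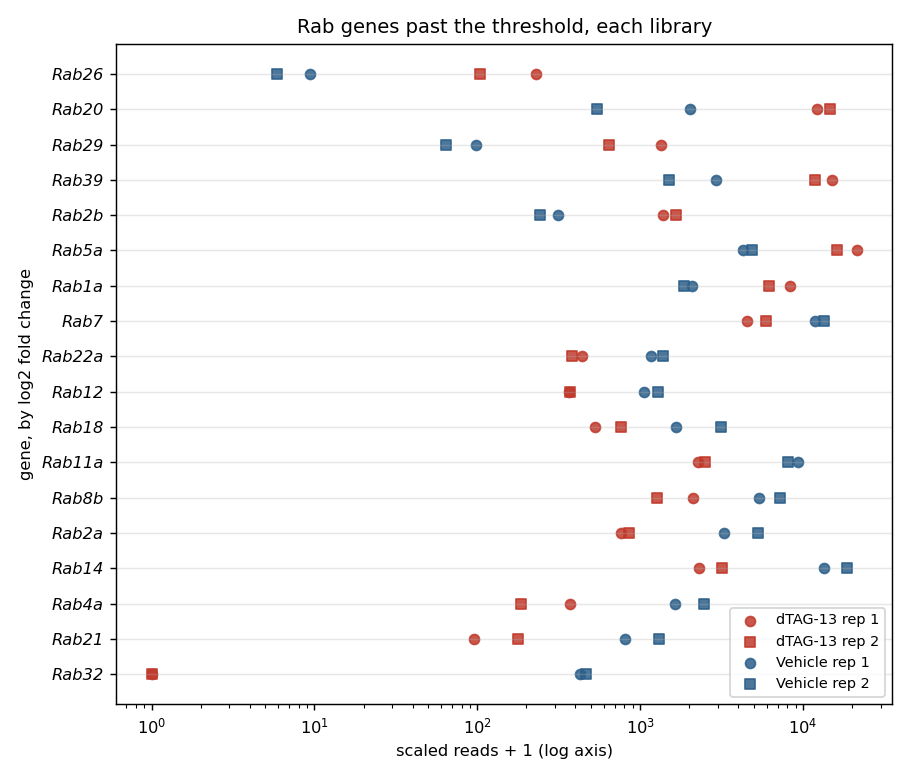
Scaled reads plus 1 on a log axis for the 18 Rab genes past the threshold, in each library (points; red, dTAG-13; blue, Vehicle; circle, replicate 1; square, replicate 2), ordered by log2 fold change as deposited. Red and blue points do not overlap for any of the 18 genes, which is largely set by choosing genes past the threshold. Among all genes tested, both dTAG-13 libraries lay above both Vehicle libraries for 32.2% and below them for 34.5%. Both dTAG-13 values of Rab32 are at 0 reads. Rab32 and Rab26 reached the filter through 1 group, so their places in this order are not a ranking. Of the 11 lower genes, 6 had positive fold changes when libraries were scaled to equal oocyte transcripts.

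The direction of the lower members depended on how libraries were scaled to one another. When libraries were rescaled to equal levels of 48 measured oocyte transcripts, the median of all genes went from -0.10 to 2.10 on the log2 scale and limma called 24 Rab members higher and 1, Rab32, lower. Under that scaling Rab11a, Rab12, Rab18, Rab22a and Rab8b had positive log2 fold changes of 0.45, 0.66, 0.47, 0.68 and 0.40 without passing the threshold, and Rab7 passed as higher at 1.04 (adjusted p = 0.0346, limma). When libraries were rescaled to equal levels of 15 mitochondrial genes, the median of all genes moved to 0.72 and 0 genes passed by limma, although 14 members had a positive and 6 a negative fold change with an unadjusted p under 0.05. The 11 lower members stayed below the median of all genes, and the 7 higher ones above it, under the deposited, TMM, mitochondrial and oocyte scalings. A rescaling shifts all genes of a library alike apart from the pseudocount. This order was thus largely set in advance and is not a separate check. Directions below are those of the deposited scaling, relative to a median of all genes of -0.10.

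**Figure D2:**
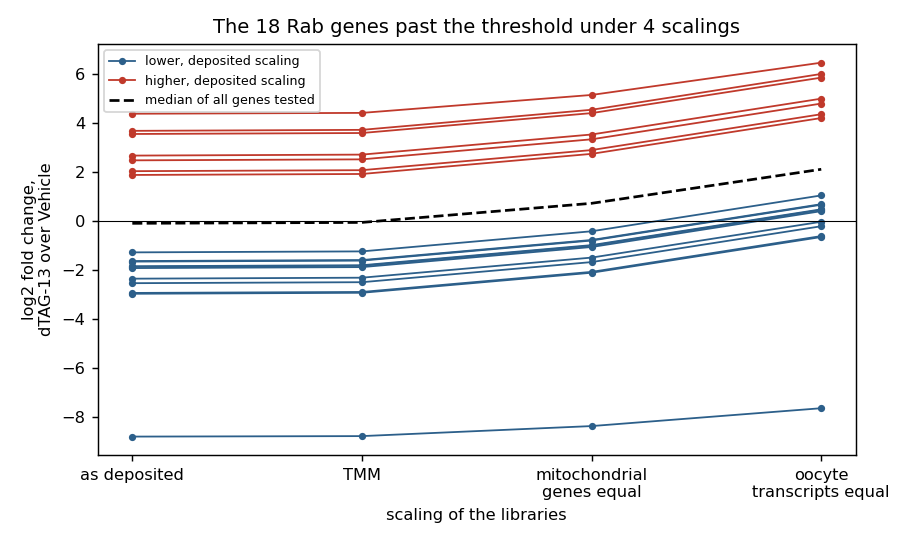
Log2 fold change of dTAG-13 over Vehicle for the 18 Rab genes past the threshold (lines; red, higher as deposited; blue, lower as deposited) and the median of all 15978 genes tested (dashed) under 4 scalings of the libraries. The dashed line moves from -0.10 to 2.10, every red line stays above it and every blue line below it, and 6 blue lines end above 0 under the oocyte scaling. A rescaling moves all lines nearly alike, so their order around the dashed line is largely set in advance.

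The 4 members with the smallest p-values (each at an adjusted p = 0.0219, limma) were Rab32, Rab14, Rab5a and Rab11a. Their promoters are shown because they head the lower and the higher members. Each sequence runs 5′ to 3′ on the gene's strand from 250 bases before to 50 bases after the start in RefSeq (GRCm38.p6), with capitals for matches on either strand to the TATA box letters TATAAA, the GC box letters GGGCGG, the CCAAT box, the ETS letters CCGGAAG, the E-box letters CACGTG or the Obox letters GGATTA. Rab5a held CACGTG at 2 places, Rab11a held 4 ETS matches of which the last 2 overlap on opposite strands, Rab14 held 1 GC box and 1 ETS match, and Rab32 held none of the 6 motifs.
Rab5a promoter, chr17:53478984-53479283, plus strand: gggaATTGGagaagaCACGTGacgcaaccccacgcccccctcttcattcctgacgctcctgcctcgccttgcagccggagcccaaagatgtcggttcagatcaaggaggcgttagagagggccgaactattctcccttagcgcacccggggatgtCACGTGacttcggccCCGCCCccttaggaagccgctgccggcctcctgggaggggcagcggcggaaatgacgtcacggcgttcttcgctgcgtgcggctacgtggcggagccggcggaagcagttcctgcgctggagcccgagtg
Rab11a promoter, chr9:64737707-64738006, minus strand: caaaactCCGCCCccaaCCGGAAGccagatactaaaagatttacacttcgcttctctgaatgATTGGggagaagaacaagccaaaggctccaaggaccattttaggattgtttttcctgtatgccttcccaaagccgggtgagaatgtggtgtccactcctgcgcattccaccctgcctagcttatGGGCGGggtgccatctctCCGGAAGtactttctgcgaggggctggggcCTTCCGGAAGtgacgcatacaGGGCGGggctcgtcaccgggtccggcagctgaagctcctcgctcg
Rab14 promoter, chr2:35201071-35201370, minus strand: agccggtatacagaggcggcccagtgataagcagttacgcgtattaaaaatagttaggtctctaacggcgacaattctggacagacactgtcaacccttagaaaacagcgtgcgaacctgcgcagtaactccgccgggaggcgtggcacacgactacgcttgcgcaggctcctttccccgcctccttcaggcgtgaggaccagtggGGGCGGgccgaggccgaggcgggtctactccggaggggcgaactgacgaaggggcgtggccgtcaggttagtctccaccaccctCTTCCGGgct
Rab32 promoter, chr10:10558158-10558457, minus strand: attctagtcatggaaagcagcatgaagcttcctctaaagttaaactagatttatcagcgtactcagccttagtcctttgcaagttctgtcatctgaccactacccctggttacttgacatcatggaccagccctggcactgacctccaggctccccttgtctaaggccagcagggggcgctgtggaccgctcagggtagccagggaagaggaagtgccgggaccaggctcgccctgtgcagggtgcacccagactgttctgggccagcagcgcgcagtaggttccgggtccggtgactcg

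A match describes letters and not a bound site. Among tested genes with a promoter, 11.1% held the E-box, 17.9% the ETS motif, 63.3% the GC box, 43.9% the CCAAT box, 10.1% the TATA box and 7.40% the Obox motif, and among all 32851 promoter windows of this length these shares were 7.15%, 8.86%, 35.7%, 37.4%, 13.6% and 7.06%. Promoters were found for 46 of the 54 members, 6 of the 7 higher and 8 of the 11 lower. Higher members had a median GC content of 64.8% and lower members of 64.5%, beside 61.7% for tested members without a call and 59.7% for all tested genes with a promoter. TATAAA was present in 0 of the 6 higher and 1 of the 8 lower members, and GGGCGG in 5 and 7. The E-box was present in 2 of the 6 higher members (Rab5a and Rab20) and in 1 of the 8 lower members (Rab21).

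Members were described by the membranes on which they are best known, with each gene placed in 1 group, although many Rab proteins work on several. Levels of different genes were compared as scaled reads per kilobase of merged annotated exons. A share is a group's part of the summed level of all 54 members in 1 library, which does not depend on how libraries are scaled. The summed level itself was 30610 and 28943 scaled reads per kilobase with dTAG-13 against 21800 and 23806 with Vehicle, and it does depend on that scaling. Of these sums, Rab20 alone gave 8808 and 10456 with dTAG-13 against 1460 and 387 with Vehicle. Without Rab20 the sums of the groups overlap. Early endosome members held 42.5% and 47.2% of the Rab level with dTAG-13 and 12.1% and 7.51% with Vehicle. Recycling endosome members held 4.64% in each dTAG-13 library against 24.0% and 23.8%, and late endosome and lysosome members held 13.5% and 13.7% against 28.8% and 30.1%. Members of the endoplasmic reticulum and Golgi held 31.5% and 27.1% against 22.9% and 24.5%, and those of secretion and exocytosis held 6.41% and 5.49% against 10.9% and 13.6%. The groups did not overlap in any of these 5 shares, and an exact two-sided permutation test of 2 against 2 libraries cannot give a p below 0.333. Without division by length the early endosome share was 38.4% and 39.3% against 11.1% and 9.26%, and without Rab20, its largest member, it was 19.2% and 17.4% against 5.81% and 5.99%. These shares rest on a few genes. Of the Rab level, Rab7 alone held 5.67% and 7.89% with dTAG-13 against 21.0% and 21.6% with Vehicle. Rab11a held 2.47% and 2.88% against 14.3% and 11.4%. Rab39 held 16.6% and 13.7% against 4.54% and 2.13%. It was placed with the endoplasmic reticulum and Golgi but is also found on endosomal membranes, so the shares of the role groups depend on its placement. With both Rab20 and Rab5a left out the early endosome share turned, to 0.590% and 1.03% with dTAG-13 against 1.88% and 2.13%, and with Rab39 and Rab1a left out the share of the endoplasmic reticulum and Golgi turned, to 10.05% and 9.66% against 17.1% and 21.2%. The role groups were drawn up with earlier results of these data known. In pooled embryos, fewer cells with a transcript and less of it per cell cannot be told apart.

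**Figure D3:**
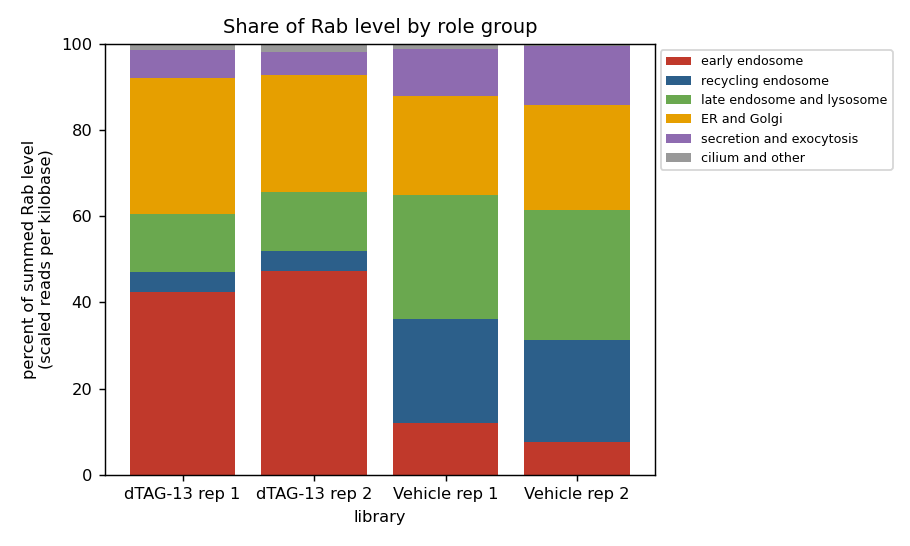
Percent of the summed Rab level (scaled reads per kilobase of exon) held by each role group in each of the 4 libraries (stacked bars, 1 per library). The early endosome part is 42.5% and 47.2% with dTAG-13 against 12.1% and 7.51% with Vehicle, and the recycling endosome part is 4.64% in each dTAG-13 library against 24.0% and 23.8%.

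Ranking by level per kilobase gave different leading members in the groups. With Vehicle, Rab7 was highest at 4861 scaled reads per kilobase, followed by Rab11a at 2916, Rab2a at 1998, Rab6a at 1411 and Rab8b at 1323. With dTAG-13, Rab20 was highest at 9632 scaled reads per kilobase, followed by Rab39 at 4527, Rab5a at 3571, Rab7 at 2009.8 and Rab1a at 1912. Rab20, Rab39, Rab5a and Rab1a ranked 9, 11, 10 and 13 with Vehicle. Neighbours in this order often differed by less than the spread between pools, such as Rab20 with 2032 and 539 scaled reads in the Vehicle libraries. The 5 highest members of a library held 71.6% and 73.9% of the Rab level with dTAG-13 and 54.8% and 56.3% with Vehicle.

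Early endosome members moved in opposite directions. Of 7 such genes, 6 were tested, with 2 higher, 2 lower and 2 not past the threshold (66.7% called, beside 18.7% of all genes). Rab5a (ENSMUSG00000017831.7, chromosome 17, 53479234 to 53507680), which drives fusion of early endosomes, had 21521 and 16122 scaled reads under dTAG-13 and 4294 and 4858 with Vehicle. Both dTAG-13 pools were above both Vehicle pools, and Rab5a rose by 2.03 ± 0.25 on the log2 scale (SE, n = 2 per group; adjusted p = 0.0219, limma). Rab20 (chromosome 8, 11453518 to 11478710), which acts on endosomes and phagosomes, had 12260.3 and 14555 scaled reads under dTAG-13 and 2032 and 539 with Vehicle, so the Vehicle pools differed from one another by a larger ratio than the treated ones. Rab20 rose by 3.67 ± 0.65 (adjusted p = 0.0296, limma), and its log2 fold change was 2.72 without Vehicle replicate 2 and 4.63 without Vehicle replicate 1. Of the exon bases of Rab20, 25.6% overlap E230013L22Rik on the other strand, which had 101 and 147 scaled reads under dTAG-13 against 7.20 and 1.62 with Vehicle, and the unstranded libraries cannot separate the reads of the overlap.

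The lower early endosome members were Rab21 and Rab22a. Rab21, which regulates integrin endocytosis, had 94.5 and 176 scaled reads under dTAG-13 and 805 and 1297 with Vehicle, and fell by 2.97 ± 0.54 on the log2 scale (adjusted p = 0.0308, limma). Rab22a, which acts in sorting at early endosomes, had 435 and 382 scaled reads against 1168 and 1386, and fell by 1.64 ± 0.35 (adjusted p = 0.0396, limma; 0.0504 with edgeR). In both genes the groups were well apart. Rab5b and Rab5c, the paralogs of Rab5a, were scarce. Rab5b had 39.8 and 135 scaled reads under dTAG-13 against 8.41 and 55.2, and Rab5c had 34.2 and 65.6 against 94.9 and 37.3, with overlapping groups in both. Rab31 was not tested, with at most 34.9 scaled reads in any library.

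Recycling endosome members included some of the clearest decreases. Of 7 genes, 5 were tested, with 3 lower, 2 not past the threshold and 0 higher by limma (60.0% called, beside 18.7% of all genes). At an unadjusted p under 0.05, 1 was higher by limma, and edgeR and DESeq2 called 0 higher. Under the oocyte scaling limma called Rab11b and Rab35 higher. Rab14 (chromosome 2, 35180205 to 35201120), which works between the Golgi and endosomes, was the most abundant member by reads with Vehicle, at 13436 and 18687 scaled reads, and had 2310.2 and 3203 with dTAG-13. Both treated pools were several-fold below both Vehicle pools, and Rab14 fell by 2.54 ± 0.30 on the log2 scale (adjusted p = 0.0219, limma). Rab11a (chromosome 9, 64715299 to 64737758), the main Rab of recycling endosomes, had 2264 and 2493 scaled reads under dTAG-13 and 9304 and 8146 with Vehicle. The pools of each group were close together, and Rab11a fell by 1.87 ± 0.24 (adjusted p = 0.0219, limma).

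Rab4a, which serves the fast return of receptors from early endosomes, had 371 and 184 scaled reads under dTAG-13 and 1640.3 and 2467 with Vehicle, and fell by 2.94 ± 0.50 (adjusted p = 0.0275, limma). Rab35, which acts in a recycling route from the plasma membrane, had 472 and 320.1 scaled reads against 492 and 364, with overlapping groups and a log2 fold change of -0.12 ± 0.46. Rab11b had 677 and 336 scaled reads under dTAG-13 against 126 and 209 with Vehicle, apart but not past the threshold (1.55 ± 0.59, adjusted p = 0.123, limma). Rab4b and Rab15 stayed below 15 scaled reads in all libraries and were not tested.

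Late endosome and lysosome members were 10 tested genes, of which 3 fell, 1 rose and 6 did not pass (40.0% called, beside 18.7% of all genes). Rab7 (chromosome 6, 87999106 to 88045270), which drives fusion with lysosomes, had 4533 and 5958 scaled reads under dTAG-13 and 11927 and 13450.3 with Vehicle. It fell by 1.28 ± 0.25 on the log2 scale (adjusted p = 0.0336, limma), the smallest decrease among the 11 lower members, and 12.7% of the 50-base stretches of its transcripts are shared with other genes, mainly the pseudogene Rab7-ps1. Rab32 (chromosome 10, 10545002 to 10558265), which acts in the making of lysosome-related organelles such as melanosomes, had 427 and 463 scaled reads with Vehicle and 0 reads in both dTAG-13 libraries. A count of 0 allows up to 3 reads, or 1.87 and 2.09 scaled reads in these libraries by counting error alone. Under the deposited scaling Rab32 was thus at least 225-fold lower with dTAG-13 (adjusted p = 0.0219, limma). This bound depends on the scaling and would be smaller under the oocyte scaling. Rab38, a close relative of Rab32 in the same process, had 195 and 284 scaled reads against 657 and 959, also without overlap. It did not pass (-1.75 ± 0.46, adjusted p = 0.0565, limma). DESeq2, the replicate block, a pseudocount of 10 and a minimum mean of 50 called Rab38 lower.

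Rab12, which directs receptors to degradation, had 366 and 368 scaled reads under dTAG-13 and 1048 and 1289 with Vehicle, and fell by 1.66 ± 0.36 (adjusted p = 0.0399, limma; 0.0504 with edgeR). Rab29, which acts at the Golgi and at stressed lysosomes and is known as a partner of the kinase Lrrk2, had 1342 and 639.5 scaled reads under dTAG-13 and 97.3 and 63.3 with Vehicle. Both treated pools lay far above both Vehicle pools although they differed from one another, and Rab29 rose by 3.54 ± 0.60 (adjusted p = 0.0272, limma). Rab9, which serves transport from late endosomes to the Golgi, had 841 and 857 scaled reads against 853 and 959. Its log2 fold change was -0.09 ± 0.33 with a narrow spread in both groups. Rab34 and Rab24 had log2 fold changes of 1.54 ± 0.51 and 1.96 ± 0.64 (adjusted p = 0.0915 and 0.0891, limma). DESeq2 called Rab34 higher, and limma called both higher under the oocyte scaling. Of the exon bases of Rab24, 62.4% overlap Prelid1 on the other strand. Rab36 and Rab9b had a library at 0 reads in each group.

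Members of the endoplasmic reticulum and Golgi were 13 tested genes, of which 3 rose, 2 fell and 8 did not pass (38.5% called, beside 18.7% of all genes). Rab1a (chromosome 11, 20201432 to 20226856), which is needed for transport from the endoplasmic reticulum to the Golgi, had 8332 and 6196 scaled reads under dTAG-13 and 2081 and 1847 with Vehicle, and rose by 1.87 ± 0.28 on the log2 scale (adjusted p = 0.0235, limma). Rab39 (chromosome 9, 53684110 to 53706232), found on Golgi and endosomal membranes, had 15127 and 11774 scaled reads under dTAG-13 and 2938 and 1509.6 with Vehicle. The groups were far apart, and Rab39 rose by 2.66 ± 0.39 (adjusted p = 0.0233, limma).

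Rab2a and Rab2b, which act between the endoplasmic reticulum and the Golgi and in fusion with lysosomes, moved in opposite directions. Rab2a (chromosome 4, 8535644 to 8607778) had 764 and 852 scaled reads under dTAG-13 and 3249 and 5276 with Vehicle, and fell by 2.36 ± 0.35 (adjusted p = 0.0239, limma). Rab2b (chromosome 14, 52261759 to 52279545) had 1387 and 1662 scaled reads under dTAG-13 and 311 and 240.2 with Vehicle, and rose by 2.47 ± 0.38 (adjusted p = 0.0244, limma). Of the exon bases of Rab2b, 59.3% overlap the annotated locus Gm43766 on the other strand, which had 1.24 and 16.7 scaled reads under dTAG-13 against 98.5 and 153 with Vehicle, and reads of the overlap cannot be assigned to a strand. Rab18, a Rab of the endoplasmic reticulum and lipid droplets, had 524 and 762 scaled reads against 1669 and 3115, and fell by 1.85 ± 0.45 (adjusted p = 0.0483, limma), a call lost with no filter (0.0583) and with a pseudocount of 0.5 (0.0516).

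Rab6a, an abundant Golgi member, had 4095 and 3549 scaled reads under dTAG-13 against 4829 and 5693, a log2 fold change of -0.46 ± 0.25 (adjusted p = 0.236, limma). Rab1b had 65.9 and 0 scaled reads against 112 and 206 with Vehicle. The other tested members of this group (Rab19, Rab30, Rab33a, Rab33b, Rab39b and Rab43) had log2 fold changes between -2.90 and 2.84 with adjusted p of at least 0.113 (limma), and Rab6b was not tested.

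Members of secretion and exocytosis were 11 tested genes, of which 1 rose, 1 fell and 9 did not pass (18.2% called, close to the 18.7% of all genes). Rab8b (chromosome 9, 66843664 to 66919687), which carries cargo to the plasma membrane, had 2104 and 1262 scaled reads under dTAG-13 and 5335 and 7191 with Vehicle, and fell by 1.93 ± 0.36 on the log2 scale (adjusted p = 0.0318, limma). Rab26, which acts on secretory granules, had 227 and 103 scaled reads under dTAG-13 and 8.41 and 4.87 with Vehicle. The Vehicle values rest on 7 and 3 reads and lie under the mean of 10, so Rab26 reached the filter through the dTAG-13 libraries. Its log2 fold change of 4.37 ± 0.99 (adjusted p = 0.0436, limma) is therefore not ranked among the higher members. It was not called by edgeR or in the authors' deposited table. Rab8a had 834 and 766 scaled reads under dTAG-13 against 298 and 128, apart but not past the threshold (2.03 ± 0.55, adjusted p = 0.0615, limma). DESeq2, the replicate block, a pseudocount of 10 and a minimum mean of 50 called Rab8a higher, and its log2 fold change was 1.42 without Vehicle replicate 2 and 2.63 without Vehicle replicate 1.

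Rab10, which acts in the insertion of membrane proteins at the cell surface, had 2996 and 2584 scaled reads against 2315 and 4198, with overlapping groups (-0.16 ± 0.37). All 4 forms of Rab3, the Rabs of regulated exocytosis, had negative fold changes that did not pass in limma under the deposited scaling. Rab3d was called lower by DESeq2, Rab3a with the replicate block or a pseudocount of 10, and Rab3c without a variance trend, but Rab3b turned positive under the mitochondrial scaling and Rab3b, which then passed, and Rab3d under the oocyte scaling. Rab3d had 216 and 97.6 scaled reads against 474 and 654, Rab3a had 0 and 34.2 against 247 and 268, and Rab3b had 181 and 174 against 186 and 292. Rab3c had 0 reads in both dTAG-13 libraries and 26.4 and 16.2 scaled reads, from 22 and 10 reads, with Vehicle. Under the deposited scaling Rab3c was at least 10.8-fold lower at 3 reads per library, but did not pass (adjusted p = 0.0883, limma). This bound, too, would be smaller under the oocyte scaling. Rab13 had 547 and 529 scaled reads against 282 and 128 (1.49 ± 0.56, adjusted p = 0.116, limma). Rab27a and Rab27b had log2 fold changes of -0.41 ± 0.49 and -3.88 ± 2.11, the latter with 1 dTAG-13 library at 0.

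The 5 remaining members include Rab23 and Rab28 of cilia and Rab40b and Rab40c of ubiquitin ligase complexes. Of these 5, 0 passed in either direction by limma under the deposited scaling, also at an unadjusted p under 0.05, by edgeR and by DESeq2. Among all genes tested, limma called 18.7%. Under the oocyte scaling limma called Rab23 and Rab42 higher. Rab42 had 195 and 168 scaled reads under dTAG-13 against 38.4 and 0, and Rab40c had 516 and 628 against 413 and 14.6, so that the Vehicle pools of both genes disagreed with one another.

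**Figure D4:**
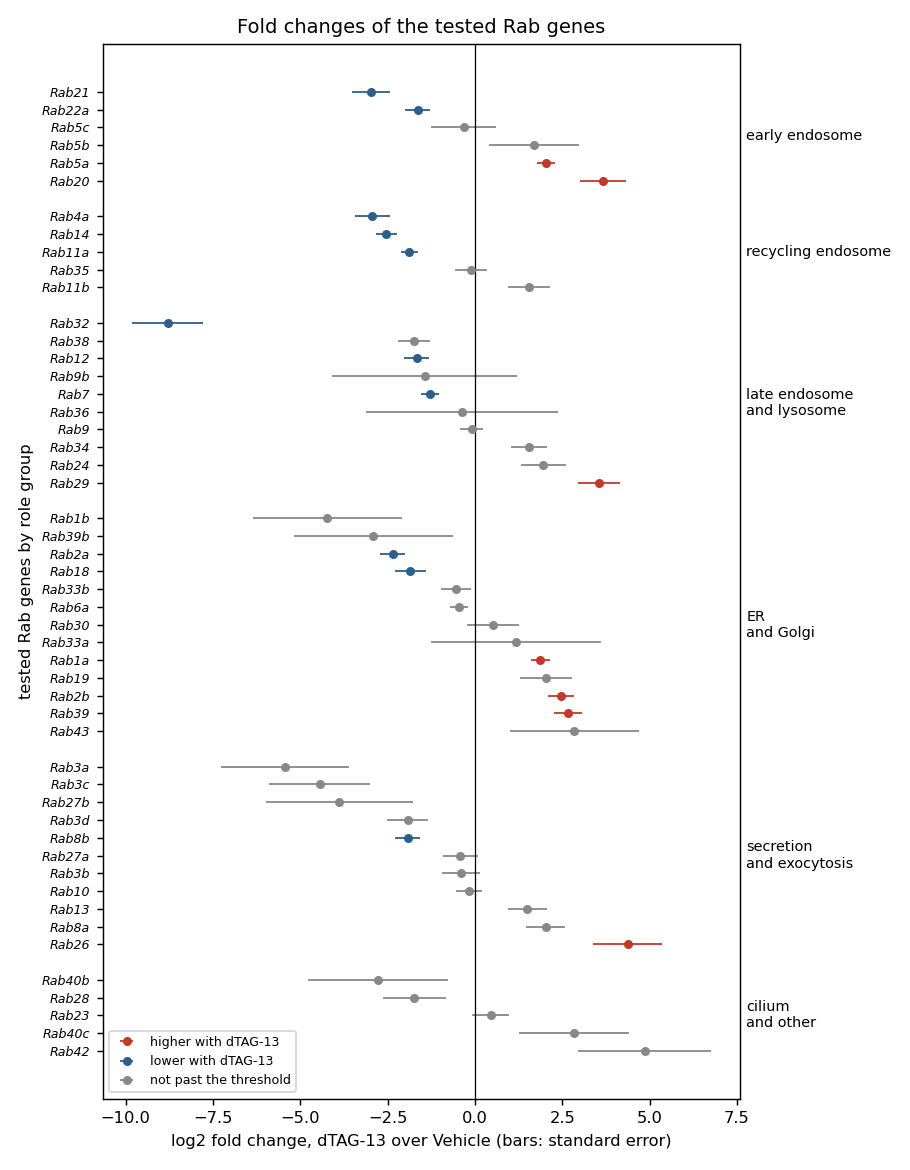
Log2 fold change of dTAG-13 over Vehicle with its standard error for the 50 tested Rab genes by role group (points; red, higher; blue, lower; grey, not past the threshold), under the deposited scaling. The early endosome, late endosome and ER and Golgi groups each hold red and blue points, the recycling endosome group holds 3 blue and 0 red ones, and 6 of the 11 blue genes had positive values when libraries were scaled to equal oocyte transcripts.

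Paralogs that share a number were compared by the log2 ratio of their scaled reads within a library, which the scaling of libraries leaves unchanged apart from the pseudocount. Among 18 pairs of tested paralogs, 7 included a called member, and in 6 of these the ratios of the groups did not overlap, beside 12 of all 18 pairs. A called member already had groups that were apart, so the count of 6 is largely set by the choice of pairs. Rab2a and Rab2b were the 1 pair of 18 in which both members passed in opposite directions. Rab2b made up 4.67% and 2.28% of their combined level per kilobase with Vehicle and 48.2% in dTAG-13 replicate 1, and in replicate 2 the levels of the 2 genes per kilobase were equal to within a log2 ratio of 0.000849. Rab8a made up 28.6% and 38.0% of the Rab8a and Rab8b level with dTAG-13 and 5.35% and 1.77% with Vehicle. Rab11b made up 12.7% and 6.17% of the Rab11a and Rab11b level with dTAG-13 and 0.657% and 1.24% with Vehicle.

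The log2 ratio of Rab2a to Rab2b was -0.91 ± 0.07 with dTAG-13 and 3.92 ± 0.76 with Vehicle (SD, n = 2), that of Rab8a to Rab8b was -1.03 ± 0.44 against -4.98 ± 1.16, and that of Rab11a to Rab11b was 2.31 ± 0.81 against 5.73 ± 0.65. Rab2b, Rab8a and Rab11b, the minor forms with Vehicle, thus held a larger part of their pairs in both dTAG-13 libraries. In another 3 pairs the minor form held a smaller part with dTAG-13, again without overlap. Rab1b held 1.31% and 0% of the Rab1a and Rab1b level per kilobase with dTAG-13 and 8.23% and 15.7% with Vehicle, Rab5c held 0.380% and 0.967% of the Rab5a and Rab5c level against 5.04% and 1.81%, and Rab39b held 0.539% and 0% of the Rab39 and Rab39b level against 1.79% and 4.66%. The ratio of Rab5a to Rab5b was 9.04 and 6.89 on the log2 scale with dTAG-13 against 8.83 and 6.43, with overlapping groups. Reads of close copies are uncertain, since 13.6% of the 50-base stretches of Rab11b transcripts also occur in other genes, mainly the pseudogene Rab11b-ps2, beside 57.0% for Rab2b, mainly Gm43766, 4.51% for Rab2a, 1.03% for Rab8a, 5.46% for Rab8b and 1.85% for Rab11a.

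**Figure D5:**
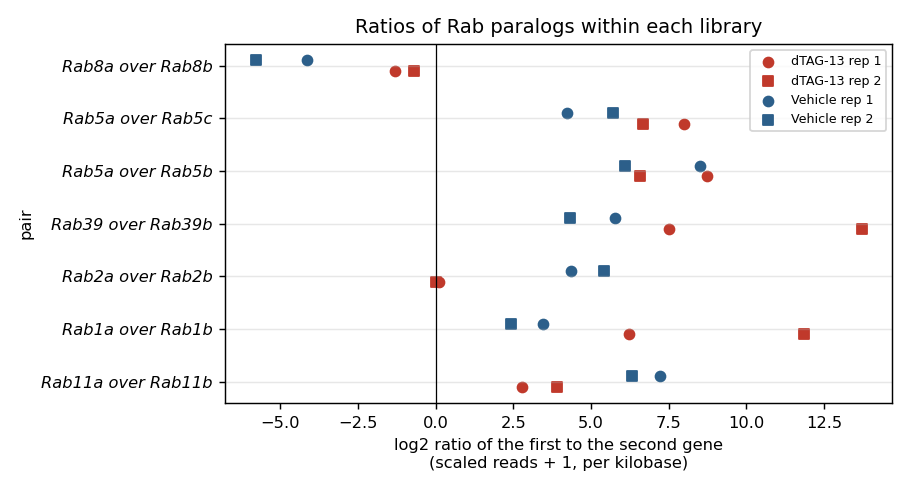
Log2 ratio of the first to the second gene of a paralog pair, from scaled reads plus 1 per kilobase of exon, in each library (points; red, dTAG-13; blue, Vehicle; circle, replicate 1; square, replicate 2), for the 7 pairs with a called member. Red and blue points are apart in 6 pairs and overlap for Rab5a over Rab5b, and Rab2a over Rab2b is near 0 in the dTAG-13 libraries. The position of Rab2a over Rab2b depends on the exon length used for Rab2b.

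Genes that run the Rab cycle were described from 4 lists. Of 10 factors for the lipid anchor and membrane recycling of Rab proteins, 1 rose, 0 fell and 9 did not pass (median log2 fold change 0.17; by limma also 0 lower at an unadjusted p under 0.05, and 0 by edgeR and DESeq2). Gdi2, which extracts inactive Rab proteins from membranes, had 18099 and 16660 scaled reads under dTAG-13 and 5188 and 6069 with Vehicle, and rose by 1.63 ± 0.22 on the log2 scale (adjusted p = 0.0225, limma). Of 44 tested subunits of exchange factors, 4 rose and 8 fell (median -0.35). Among GTPase-activating proteins 3 of 31 rose and 3 fell (median -0.25), and among effectors 4 of 41 rose and 9 fell (median -0.35). The 3 higher activating proteins include Evi5l, which reached the filter through the dTAG-13 libraries alone. The share called was 27.3% of the exchange factors, 19.4% of the activating proteins and 31.7% of the effectors, beside 18.7% of all genes.

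Among exchange factors, Trappc2 and Trappc1, subunits of the TRAPP complexes, fell by 4.14 ± 0.43 and 3.43 ± 0.47 on the log2 scale. Trappc4, a TRAPP subunit named here after its values were seen, moved the other way and rose by 1.37 ± 0.25. Trappc2 had 453 and 525 scaled reads under dTAG-13 and 5968 and 12468 with Vehicle. Ccz1, part of the exchange factor for Rab7, fell by 2.06 ± 0.30, and Dennd6a, an exchange factor for Rab14, fell by 2.19 ± 0.32, with log2 fold changes of 0.26 and 0.13 under the oocyte scaling. Rabgef1, an exchange factor for Rab5, had 2901 and 3719 scaled reads under dTAG-13 and 1060.3 and 969 with Vehicle, and rose by 1.70 ± 0.30 (adjusted p = 0.0287, limma).

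Among GTPase-activating proteins, Tbc1d12 had 4389 and 4864 scaled reads under dTAG-13 and 832 and 706 with Vehicle, and rose by 2.59 ± 0.28. Tbc1d15, which acts on Rab7, had 4719 and 4020.4 scaled reads against 15476 and 25337, and fell by 2.18 ± 0.31. Evi5 fell by 1.13 ± 0.22, and under the oocyte scaling Tbc1d15 was at 0.14 and Evi5 at 1.19 on the log2 scale. Tbc1d9b rose by 2.31 ± 0.56 (adjusted p = 0.0489, limma). Evi5l had 64.1 and 60.7 scaled reads under dTAG-13 and 1.20 and 0 with Vehicle, from 1 and 0 reads, so that it reached the filter through the dTAG-13 libraries alone and its fitted fold change is not given (adjusted p = 0.0468, limma). Both calls were lost with edgeR, the replicate block and a pseudocount of 0.5, which left Tbc1d12 as the 1 higher gene of this list.

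Among effectors, Sytl4, which binds Rab27 on secretory granules, had 332 and 386 scaled reads under dTAG-13 and 4414 and 3993 with Vehicle, and fell by 3.55 ± 0.31. Rph3al, an effector of Rab3 and Rab27, fell by 3.58 ± 0.51, and Vps41, a subunit of the HOPS tether that works with Rab7, fell by 3.97 ± 0.58. Rbsn, an effector of Rab4 and Rab5 on early endosomes, had 6656 and 5905 scaled reads under dTAG-13 and 1634 and 1698 with Vehicle, and rose by 1.91 ± 0.25. Rab11fip1, an effector of Rab11, had 1173 and 1687 scaled reads against 186 and 201, and rose by 2.85 ± 0.41. The 2 pools of each group were close together in Sytl4 and Rbsn, and the groups were apart in all of these genes. Of the genes of the Rab cycle named here, Trappc2 and Tbc1d12 passed without Vehicle replicate 1, and 0 passed by limma in the other 3 fits with a library left out.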

How the data were processed

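RNA-seq of mouse 2-cell embryos was analysed in 4 libraries, 2 per group, grouped by the treatment in the labels. The deposited signal is a scaled read number: in each library the values were whole multiples, within 1e-04 reads, of a single step in 100% of cases, as gene reads divided by 1 size factor are. The submitters' processing notes name bcl2fastq, Picard, HTSeq, DESeq and mm10, with aligner and annotation not given in the sources used here. A second deposited table, the authors' comparison, gives log2 fold changes, which equal the log2 ratio of group means in 14776 of 14776 genes with both means above 0, and p-values with adjusted p-values, per the file headers. No column was left without a sample, and no row lacked a gene name.

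Here limma 3.58.1 (R 4.3.3; linear model, empirical Bayes with a mean-variance trend, two-sided) was run on log2(scaled reads + 1) for the 15978 genes that averaged 10 scaled reads or more, with Benjamini-Hochberg adjustment over all of them and a threshold of 0.05. Fold changes on this scale understate those of low genes with reads in every library, and where a library is at 0 they can exceed the ratio of means (Rab1b, -4.22 against -2.27 in the authors' deposited table). The pseudocount, the filter, the variance model, the scaling (TMM; oocyte transcripts; mitochondrial genes), edgeR 4.0.16 and DESeq2 1.42.0 on the recovered reads, a replicate block and leaving out each library were tried as alternatives; edgeR called 1026 genes higher and 1146 lower. The scripts were tested on simulated data. Libraries held 16522506 to 38112685 reads, so a count of 0 allows up to 3 reads, or 1.87 to 4.87 scaled reads, by counting error only.

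The members, role groups and lists of the Rab cycle, oocyte transcripts and cell types were chosen with earlier results of these data known. Named were all members past the threshold, the 12 tested members with the highest mean, members without reads in 1 group, paralogs of called members, and up to 5 called genes with the smallest p per list of the Rab cycle; the other members are given for completeness. Exons were merged and overlaps counted in GENCODE M21, to which 18625 of 18714 identifiers matched.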

Additional observations from a re-analysis of the deposited data

How the results depend on the processing

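The 18 called Rab genes kept their direction under every alternative except the oocyte scaling. Libraries left out one at a time gave 0 to 1 Rab members higher and 0 to 2 lower, 0 to 360 and 0 to 773 of all genes, 0 to 1 GTPase-activating proteins higher and 0 lower, 0 exchange factors higher and 0 to 1 lower, and 0 effectors or prenylation factors in either direction (limma; unadjusted counts stayed above 0 except for lower prenylation factors), with a Rab median of -0.59 to -0.33. Such fits assume that the single pool varies like the other group. DESeq2 called 2406 genes higher and 2650 lower, with 9 and 13 Rab members, 2 prenylation factors higher, and 7 exchange factors higher and 13 lower. edgeR called 6 and 9 Rab members, and 2 exchange factors and 1 GTPase-activating protein higher. A mean of at least 50 gave 2 prenylation and 7 exchange factors higher, no filter gave 2 exchange factors higher, and a pseudocount of 0.5 gave 1 GTPase-activating protein higher. Without a variance trend 209 genes were higher and 380 lower, with 0 and 2 Rab members, 0 prenylation factors higher, 0 and 0 exchange factors, 1 and 0 GTPase-activating proteins and 0 and 2 effectors (unadjusted 9 and 14 Rab members).

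Under the mitochondrial scaling 0 genes were called in any list or overall (limma; unadjusted 4004 higher and 1529 lower), with a Rab median of 0.45. Under the oocyte scaling 6565 genes were higher and 306 lower, with 24 and 1 Rab members, 4 prenylation factors higher, 20 and 1 exchange factors, 13 and 0 GTPase-activating proteins, 16 and 2 effectors and a Rab median of 1.91. The sign turned there for Rab11a (0.45), Rab12 (0.66), Rab18 (0.47), Rab22a (0.68), Rab7 (1.04), Rab8b (0.40), Ccz1 (0.26), Dennd6a (0.13), Tbc1d15 (0.14) and Evi5 (1.19). Rab10 was 0.70, Rab5c 0.51 and Rab6a 0.40 under the mitochondrial and 2.16, 1.95 and 1.86 under the oocyte scaling. With a library left out, log2 fold changes ran from -0.59 to 0.27 for Rab10, positive without Vehicle replicate 2; from -6.19 to 0.38 for Rab39b, positive without dTAG-13 replicate 2; and from -0.99 to 0.34 for Rab5c, positive without Vehicle replicate 1 and without dTAG-13 replicate 1 (0.13). The difference in the log2 ratio of Rab5a to Rab5b ran from -0.87 without Vehicle replicate 2 to 1.53, and was -0.74 without dTAG-13 replicate 1. The dTAG-13 minus Vehicle difference in share turned to -1.20 percentage points for early endosome members without Rab20 and Rab5a, and to -9.29 for endoplasmic reticulum and Golgi members without Rab39 and Rab1a, which carry those shares; both alternatives were chosen after seeing the data. The causes of the other changes were not tested.

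Replicate numbers are shared by the groups, but no label says that they pair the pools, and the deviations of same-numbered libraries had a correlation of -0.0142. The replicate block gave 8 Rab members higher and 13 lower and 1 GTPase-activating protein higher. The Vehicle libraries were the shallower ones, which limits low genes such as Rab26 and Rab3c.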
